A study of Mus musculus with 4 samples.

Results

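The 9 genes described here (S1PR1, KLF2, CD69, ITGAE, ITGA1, ITGA4, ITGB7, SELPLG and RGS1) govern where lymphocytes go and whether they stay, and were taken by name from the 33538 human genes counted. They were followed in barcodes with over 50% of unique molecular identifiers (UMIs, 1 per captured transcript) on human genes, 17048 cells in all, of which 12579 were T-like and 2791 B-like. The cells came from huNSG-SGM3 mice, immunodeficient hosts of the NOD.Cg-Prkdcscid background that lack IL2rg (IL2rgtm1Wjl) and carry the transgene Tg(CMV-IL3,CSF2,KITLG)1Eav/MloySzJ. The broadly active CMV promoter thus drives the human cytokines IL3, CSF2 and KITLG in every group, and all hosts were engrafted with CD34+ stem cells from human cord blood. All hosts were labelled 15 weeks old. Naïve mice had no surgery, sham mice a T9 laminectomy, and SCI mice a T9 spinal cord injury, with sampling of the operated mice 7 days later. There were 4 libraries of sorted human CD45+ cells, namely naïve blood, sham blood, SCI blood and SCI cord, each made from a pool of animals. Male and female hosts were pooled for the SCI libraries but only males for naïve and sham, so host sex and injury cannot be told apart.

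Lymphocytes leave tissue along a gradient of sphingosine-1-phosphate, which they sense through the receptor S1PR1. The transcription factor KLF2 drives S1PR1, whereas the surface protein CD69 binds S1PR1 and pulls it inside the cell, and RGS1 dampens signalling from chemokine receptors. ITGAE (CD103, which pairs with ITGB7 to bind E-cadherin) and ITGA1 (CD49a, which binds collagen) hold cells in tissue, ITGA4 pairs with ITGB1 or ITGB7 to bind vessel walls, and SELPLG (PSGL-1) is the selectin ligand used for rolling. High CD69 and RGS1 with low KLF2 and S1PR1 is the usual transcript pattern of T cells lodged in tissue.

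Each library held 1 pool, so no test between conditions was possible, and every interval below is a 95% interval that covers counting error only. A gene's UMIs were summed over the cells of a class and scaled to CPM, the usual depth-scaled count, over that class's human UMIs without ribosomal and mitochondrial genes. A gene was called where the ratio reached 1.5-fold and its interval excluded 1, for genes that reached 20 counts in the pair of libraries together. T-like cells numbered 4219 (naïve), 3683 (sham), 4611 (SCI blood) and 66 (SCI cord), with a median depth of 3518, 5049, 4557 and 7480.5 UMIs. B-like cells in the same order numbered 1273, 570, 941 and 7. The general T label held against its markers: the 6 general T markers summed to 5415 to 6465 CPM in T-like cells and to at most 385 CPM in B-like cells. Markers of other cell types in the cord cells are given below. From 1 to 16 cells a library carried a barcode also found in another library, and the genes called over all T-like or B-like cells were the same without them.

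T-like cells of the SCI cord carried far more CD69 and RGS1 and less KLF2 than T-like cells of the blood of SCI mice. Of the 9 genes, 2 were called higher in the cord (CD69 and RGS1) and 2 lower (KLF2 and ITGA4), beside 7.13% of all 12065 genes called higher and 3.58% called lower. No member of the tissue-binding pair ITGAE and ITGA1 was called.

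**Figure D1:**
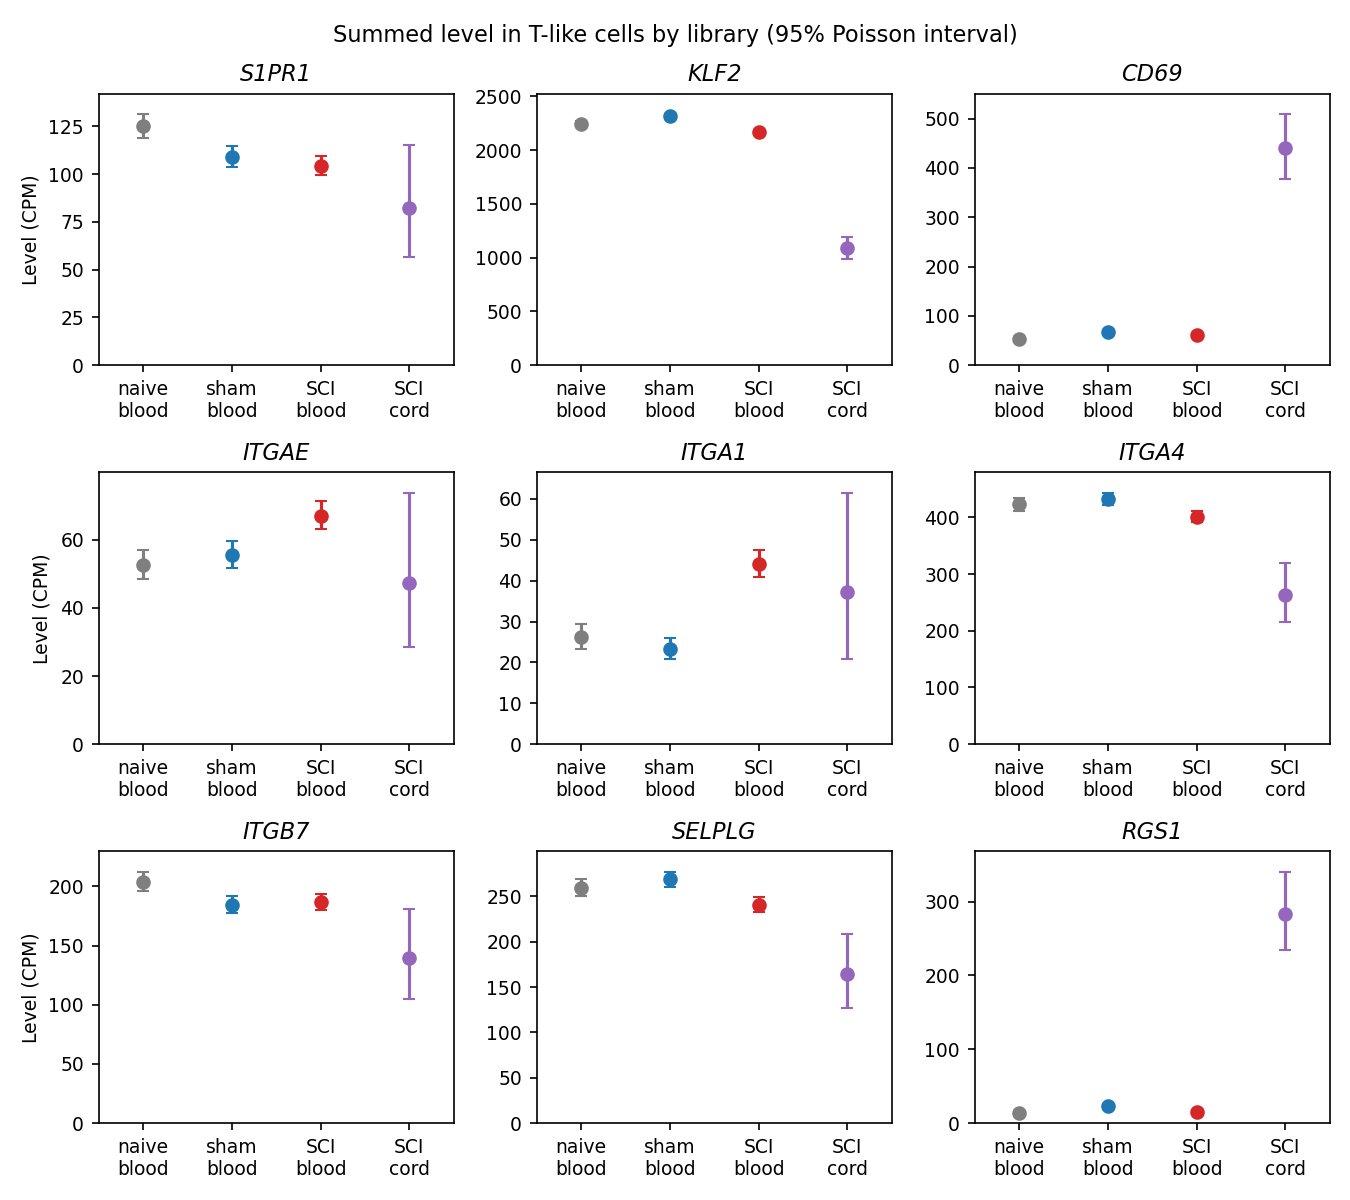
Summed level of each gene in T-like cells (CPM, linear axis from 0) in the 4 libraries; points are the level and bars its 95% Poisson interval. CD69 and RGS1 in SCI cord lie far above the 3 blood libraries, KLF2 and ITGA4 lie below them, and the wide cord bars of ITGAE and ITGA1 overlap the SCI blood value.

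Among the genes of the exit pathway, the transcription factor KLF2 was at 2240.3 CPM in naïve, 2315 CPM in sham and 2168 CPM in SCI blood, and at 1089.6 CPM in the cord. The 3 blood libraries lay close together and the cord was apart from them, 1.99-fold below SCI blood (log2 ratio −0.99, interval −1.13 to −0.86). Of the 66 cord cells, 20 held no KLF2 UMI. With every cell thinned to 1000 UMIs, KLF2 was seen in 73.8% of SCI blood cells (unthinned 98.7%) and in 36.4% of cord cells (interval 24.9% to 49.1%, unthinned 69.7%). The lower value is one of share, not of UMIs per cell: the deeper cord cells held 6.64 KLF2 UMIs each against 7.22 in SCI blood, a log2 ratio of −0.12 that was not called.

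S1PR1, the exit receptor itself, was at 125 CPM in naïve, 109 CPM in sham and 104.5 CPM in SCI blood and at 82.1 CPM in the cord, where 22 cells held 33 UMIs. The interval in the cord, 56.5 to 115 CPM, takes in the SCI blood value, and the ratio of −0.33 on the log2 scale (−0.89 to 0.15) was not called. Against naïve blood the same cord value was called lower (log2 ratio −0.59, −1.15 to −0.11), at the very edge of the rule, and against sham blood it was not (−0.39).

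The retention genes went the other way. CD69, the antagonist of S1PR1, was at 52.7 CPM in naïve, 66.4 CPM in sham and 61.9 CPM in SCI blood and at 440.3 CPM in the cord (378 to 510.2 CPM). All 3 blood libraries were low and the cord was 7.13-fold above SCI blood (log2 ratio 2.83, 2.59 to 3.06), and the call held in all 16 alternative settings. Per cell this was 2.68 CD69 UMIs in the cord against 0.206 in SCI blood. At 1000 UMIs a cell, 4.40% of SCI blood T-like cells held a CD69 UMI (unthinned 16.8%) against 28.8% of cord cells (18.3% to 41.3%, unthinned 77.3%). Mouse barcodes, which should hold no human CD69 but for free RNA, showed it in 0.179% of 1116 barcodes in SCI blood and in 1.11% of 90 in the cord at the same depth. Unthinned, the shares were 0.179% and 6.67%, at a median of 1945.5 UMIs of both species in SCI blood and 26916.5 in the cord.

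RGS1, the chemokine receptor brake, was at 14.2 CPM in naïve, 22.9 CPM in sham, 15.4 CPM in SCI blood and 284 CPM in the cord. This was the widest gap of the 9 genes, 18.4-fold above SCI blood (log2 ratio 4.202, 3.86 to 4.53), and it too was called in all 16 alternative settings. At 1000 UMIs a cell, 0.889% of SCI blood cells and 15.2% of cord cells (7.51% to 26.1%) held an RGS1 UMI, against 0.0896% of SCI blood and none of the cord mouse barcodes (unthinned 0.179% and 1.11%). RGS1 was not the product of a single cell, since 30 of 66 cord cells held its 114 UMIs and the level without the highest cell was 247 CPM.

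The integrin chains ITGA4 and ITGB7 and the selectin ligand SELPLG sat below their level in each blood library. ITGA4, the alpha 4 chain, was at 423 CPM in naïve, 433 CPM in sham, 401 CPM in SCI blood and 264 CPM in the cord, called lower at 1.51-fold (log2 ratio −0.60, −0.90 to −0.33). That call sat at the edge of the rule: it was lost in 5 of 16 alternatives, among them both thinned depths, and as UMIs per cell the ratio turned to 0.27. Its partner chain ITGB7 was at 204 CPM in naïve, 185 CPM in sham, 187 CPM in SCI blood and 139 CPM in the cord, a log2 ratio of −0.41 (−0.83 to −0.04) that was not called. SELPLG, the rolling ligand, was at 259 CPM in naïve, 269 CPM in sham, 241 CPM in SCI blood and 164 CPM in the cord, and its log2 ratio of −0.54 (−0.93 to −0.20) also stopped short of 1.5-fold, though it passed against naïve (−0.65) and sham blood (−0.70).

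ITGAE, the CD103 chain, was at 52.6 CPM in naïve, 55.5 CPM in sham, 67.0 CPM in SCI blood and 47.3 CPM in the cord, where 13 cells held 19 UMIs. At 1000 UMIs a cell no cord T-like cell kept an ITGAE UMI (0 of 66, exact upper bound 5.44%) against 4.49% in SCI blood, so a difference was not detectable at this depth. ITGA1, the CD49a chain, was at 37.3 CPM in the cord (20.9 to 61.6 CPM) against 44.2 CPM in SCI blood, with 7 cells holding 15 UMIs. Neither gene of the pair was called against any blood library over all T-like cells, although ITGAE was called lower than in SCI blood with the same subset weights in both libraries (log2 ratio −0.81), and the intervals of ITGA1 allow a difference of over 1.5-fold against naïve (log2 ratio 0.55, −0.35 to 1.25) and sham blood (0.73, −0.17 to 1.43). Over the 9 genes, the thinned shares of cord and SCI blood T-like cells had intervals that did not overlap for 3, namely KLF2, CD69 and RGS1, at 1000 and at 2000 UMIs a cell alike. The matching share over all genes was not worked out, so this count has no background beside it and is given as a description.

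The 66 cord T-like cells fell into the same clusters as the blood cells, with the 9 genes kept out of the genes used for clustering. By their leading or marker genes these were CCR10 CD4 T-like (15 cord cells), CD200 PDCD1 CD4 T-like (14), Treg-like (16), NT5E CD8 T-like (10), cytotoxic T-like (10) and NRP2 AK5 T-like (1). CD69 was called higher in the cord in each of the 5 subsets with at least 10 cells, with log2 ratios between 2.62 in NT5E CD8 and 3.36 in cytotoxic cells. RGS1 was likewise called higher in those 5 subsets, from 3.43 in Treg-like to 5.56 in CCR10 CD4 cells. Both genes were thus higher in CD4, regulatory and CD8 cells of the cord, though few cells stood behind each value: in CD200 PDCD1 CD4 cells 59.3% of the 27 RGS1 UMIs lay in a single cell.

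**Figure D2:**
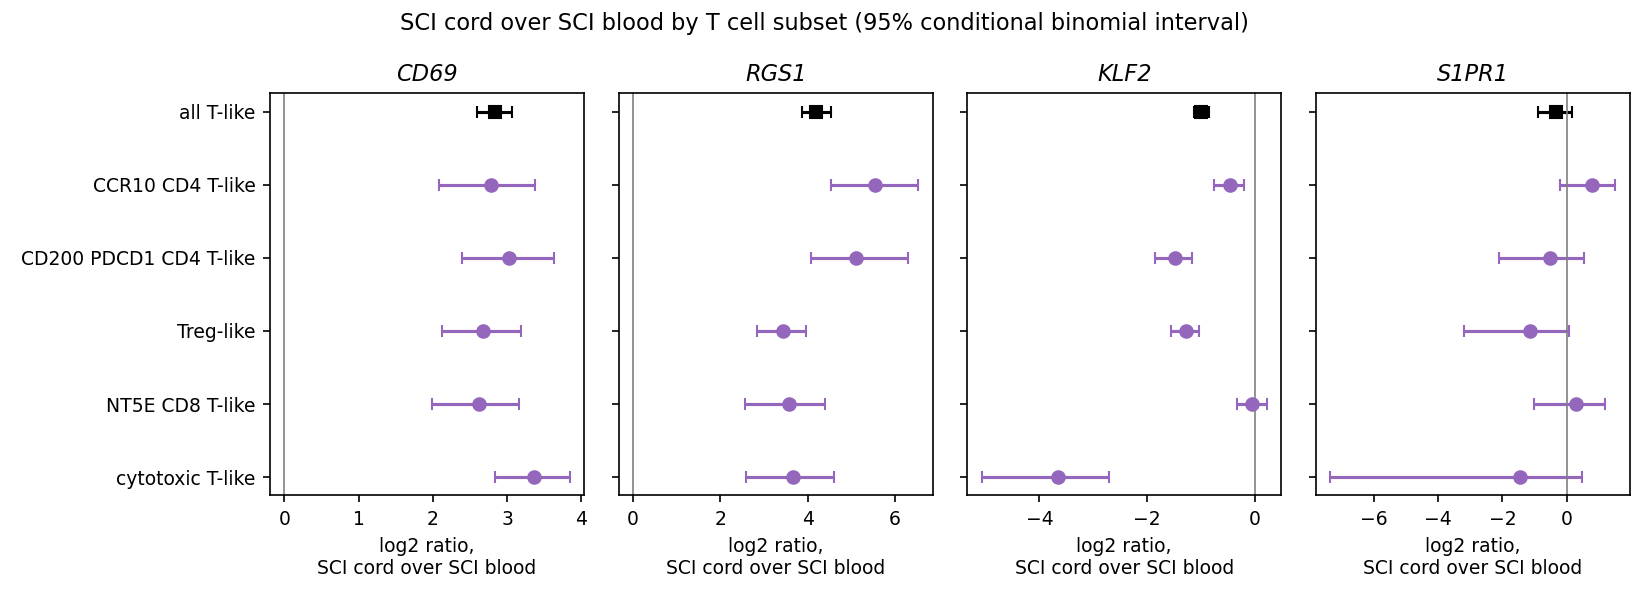
Log2 ratio of SCI cord over SCI blood for CD69, RGS1, KLF2 and S1PR1 in all T-like cells (black squares) and in each subset with at least 10 cord cells (purple), with 95% conditional binomial intervals; the vertical line marks equal levels and each panel has its own axis. CD69 and RGS1 lie above 0 in every subset, KLF2 runs from −0.04 in NT5E CD8 to −3.66 in cytotoxic cells, and the S1PR1 intervals all include 0.

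KLF2, unlike CD69, was not uniform across subsets. In cytotoxic T-like cells KLF2 was at 1969 CPM in SCI blood and 145 CPM in the cord, where 10 cells held only 7 UMIs (log2 ratio −3.66, −5.08 to −2.72). In CD200 PDCD1 CD4 cells it was at 2320.3 CPM in SCI blood and 822 CPM in the cord (−1.49), and in Treg-like cells at 2693 CPM and 1102 CPM (−1.28). In NT5E CD8 cells, by contrast, the level was 1865 CPM in SCI blood and 1803 CPM in the cord (−0.04, −0.34 to 0.23), and in CCR10 CD4 cells 2086 CPM and 1513 CPM (−0.46, −0.75 to −0.19). The intervals of the first 3 subsets do not meet those of the last 2. The cytotoxic value is the lowest of the 5 and its interval stands below all the others.

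Other subset differences rested on few UMIs. S1PR1 was not called against SCI blood in any subset, and in CD200 PDCD1 CD4 cells all 6 of its cord UMIs came from 1 of 14 cells. ITGAE was at 0 UMIs in the 15 cord CCR10 CD4 cells, where 3 counts would be 41.3 CPM, against 72.2 CPM in SCI blood, which passed the rule. ITGA4 was called lower in CCR10 CD4 (248 against 458 CPM), CD200 PDCD1 CD4 (278 against 435 CPM) and Treg-like cells (189 against 301 CPM) but not in NT5E CD8 (371 against 393 CPM) or cytotoxic cells (332 against 455 CPM). The 3 subsets with lower ITGA4 were those with lower SELPLG, the other gene of first contact with the vessel wall. ITGA1 was called higher in cord cytotoxic cells at 187 CPM against 41.2 CPM, but 6 of the 9 UMIs sat in a single cell. ITGB7 was called lower in cord Treg-like (82.2 against 215 CPM) and cytotoxic cells (83.0 against 242 CPM). SELPLG stood at lower levels, past the rule, in the CCR10 CD4 (110.1 against 247 CPM), CD200 PDCD1 CD4 (111 against 220.03 CPM) and Treg-like subsets (197 against 311 CPM).

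Within the cord, cells with CD69 were the cells most often seen with RGS1. At 2000 UMIs a cell, 13 of 26 cord T-like cells with a CD69 UMI also held RGS1 (29.9% to 70.1%), against 4 of 38 without CD69 (10.5%, 2.94% to 24.8%). In SCI blood the matching shares were 2.70% and 1.94%. CD69 was found in 17 of 29 cord cells without a KLF2 UMI (58.6%, 38.9% to 76.5%). It was found in 9 of 35 with a KLF2 UMI (25.7%, 12.5% to 43.3%), and the intervals overlap. In SCI blood the shares were 7.46% and 8.12%. S1PR1 was seen in 5 of the 35 cord cells with KLF2 (4.81% to 30.3%) and in 0 of the 29 without (upper bound 11.9%), intervals that also overlap. The subsets are pooled in these shares. Of the 10 cytotoxic cord cells, 7 held no KLF2 UMI and 9 held CD69 before thinning. These cells share 1 library, and their shares are given as a description.

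The genes around the 9 in the same pathways were read from 3 lists without the 9 genes themselves. The list values pool all T-like cells, and the subset mix differed between the libraries. CD200 PDCD1 CD4 cells were 21.2% of cord and 7.57% of SCI blood T-like cells, and cytotoxic cells 15.2% and 8.85%. NT5E CD8 cells were 15.2% and 30.9%, and NRP2 AK5 cells 1.52% and 12.7%. PDCD1 and ZNF683, on the retention list, were leading genes of the CD200 PDCD1 CD4 and cytotoxic clusters. The part of this mix in the list values, cord or blood, was not tested. Beside the list calls in cord T-like cells, 7.13% of all 12065 genes were called higher and 3.58% lower. Of the retention and residency list, 15 of 20 genes were called higher in cord T-like cells and 0 lower, with a median log2 ratio of 1.47 beside 0.04 over all genes. The highest were NR4A1, an early response nuclear receptor (4.54), the tissue chemokine receptor CXCR6 (4.29) and the inhibitory receptor HAVCR2 (3.67). The lowest, none of them called, were CRTAM (−1.06), AHR (−0.50) and the hyaluronan receptor CD44 (0.03).

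Of the egress, lymph node homing and recirculation list, 7 of 17 genes with enough counts were called lower and 1 higher, with a median of −0.50. Over all genes, 3.58% were called lower and 7.13% higher. The lowest were the fractalkine receptor CX3CR1 (−1.93, from 2 cord UMIs), KLF3 (−1.90), a relative of KLF2, and the interleukin 7 receptor IL7R (−1.38). At the upper end were S1PR2 (1.88, 6 cord UMIs), the 1 gene called higher, PATL2 (0.16) and the receptor kinase GRK2 (0.01). The adhesion and rolling list was split, with 4 of 21 called higher, 3 lower and a median of 0.14, beside the same shares over all genes. Its extremes were ICAM1 (1.95, 3 cord UMIs, not called), the glycan enzyme GCNT1 (1.68) and the adhesion receptor CD2 (1.01) at the top, and the laminin receptor chain ITGA6 (−0.97), RAP1B (−0.79) and the selectin ligand enzyme FUT7 (−0.77) at the bottom. Between the blood libraries, 6 of the 20 retention genes were called lower and 1 higher in SCI than in naïve T-like cells (LAG3 and PRDM1 among the lower, ZNF683 higher), where 4.44% of all genes were lower and 4.08% higher. In sham than naïve blood 0 were higher and 1 lower, beside 1.58% and 2.59% of all genes. In SCI than sham blood 1 was higher and 2 lower, beside 4.1% and 3.23%. The egress list had at most 1 gene in each direction in those comparisons, as did the adhesion list.

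**Figure D3:**
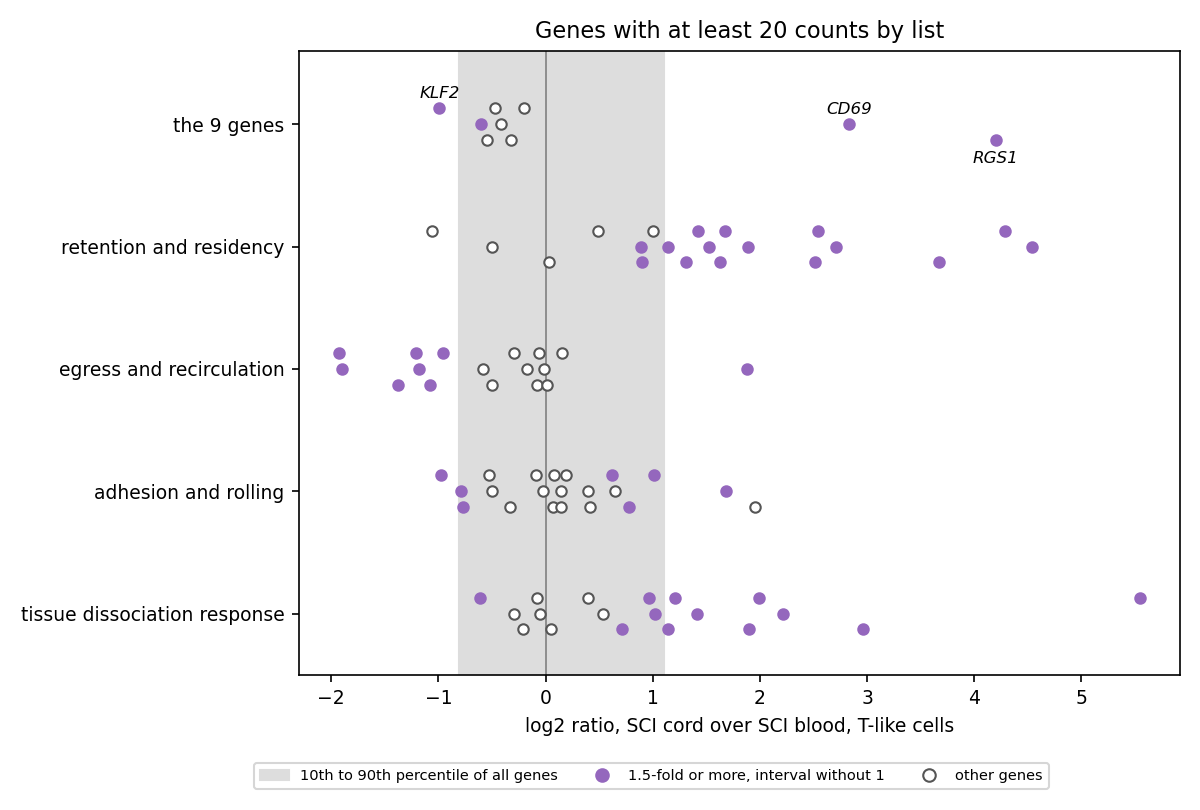
Log2 ratio of SCI cord over SCI blood in T-like cells for the 9 genes and the genes of 4 lists with at least 20 counts; filled points are called, open points are not, vertical offsets only separate points, and the grey band spans the 10th to 90th percentile of all genes tested. The retention list lies mostly to the right of the band, the egress list reaches to its left, and the tissue dissociation list also reaches to the right, up to 5.54.

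The cord and blood cells were also handled differently. The cord was digested with papain and DNase at 37 °C and passed over magnetic beads before sorting, whereas blood had its red cells lysed. A list of 20 genes known to respond to tissue dissociation moved with CD69 and RGS1: 11 of 19 were called higher in the cord and 1 lower, with a median of 0.97. Over all genes, 7.13% were called higher and 3.58% lower. The highest were EGR1 (5.54), FOS (2.97) and DUSP1 (2.22), and the lowest KLF6 (−0.61), DNAJB1 (−0.29) and HSP90AA1 (−0.21), of which only KLF6 was called. The part of dissociation in the cord levels of CD69, RGS1 and KLF2 was not tested, and no blood library was digested in this way. The same list also held calls between the undigested blood libraries: of 19 genes in T-like cells, 3 were higher and 0 lower in sham than naïve, 5 higher and 1 lower in SCI than naïve, and 3 higher and 1 lower in SCI than sham blood, with medians of 0.17, 0.32 and 0.08. In the same order, 1.58%, 4.08% and 4.1% of all genes were called higher and 2.59%, 4.44% and 3.23% lower.

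Markers of other cells moved with the cord T-like sums as well. The 7 basophil or mast cell markers summed to 256 CPM in cord T-like cells against 2.48 to 4.15 CPM in the blood libraries, with none at 0. The 7 NK markers summed to 249 CPM against 21.2 to 63.7 CPM, with NCAM1, KLRF1, KLRC1 and SH2D1B at 0 in the cord. The 7 monocyte markers summed to 29.9 CPM against 8.14 to 18.7 CPM, with FCN1, S100A12 and CSF1R at 0. The 8 B cell markers summed to 144 CPM against 119 to 134 CPM, and the 4 eosinophil markers to 39.8 CPM against 4.70 to 6.05 CPM, with EPX and PRG2 at 0. The neutrophil and platelet markers were all at 0 in the cord. The part of these in the cord values was not tested. With T cells taken by their own markers in place of clusters, the same 4 genes and ITGB7 (lower) were called.

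Within blood, the 9 genes had levels that overlapped between many T cell subsets, given here as the range over the naïve, sham and SCI libraries. Treg-like cells stood apart in several: their KLF2 (2693 to 2777 CPM) and SELPLG (311 to 370.3 CPM) lay above every other T subset, and their S1PR1 (81.4 to 96.9 CPM, against 103 to 112 CPM in the next subset, CD200 PDCD1 CD4) and ITGA4 (282 to 331 CPM) lay at the bottom of the order, S1PR1 overlapping only cytotoxic cells (85.3 to 118 CPM). RGS1 was also highest there at 26.9 to 39.8 CPM, though the range met that of NT5E CD8 cells (10.5 to 27.1 CPM). NT5E CD8 and NRP2 AK5 cells had the lowest ITGB7, at 114 to 144 CPM and 134 to 144 CPM, ranges that overlap. CD69 was highest in cytotoxic (64.8 to 93.7 CPM) and NT5E CD8 cells (71.0 to 77.9 CPM), which overlap each other. The cytotoxic range also met those of NRP2 AK5 (39.3 to 69.0 CPM) and CCR10 CD4 cells (48.8 to 68.1 CPM).

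ITGA1 was the most restricted of the 9. NT5E CD8 T-like cells held 126 to 152 CPM, NRP2 AK5 cells 40.4 to 76.7 CPM and cytotoxic cells 10.9 to 41.2 CPM, while the CCR10 CD4, CD200 PDCD1 CD4 and Treg-like subsets stayed at or under 4.18 CPM in blood. It was among the 10 leading genes of the NT5E CD8 cluster although it had no part in forming it. In SCI blood this gene was the 1 member called over all T-like cells: its level was 26.3 CPM in naïve, 23.2 CPM in sham and 44.2 CPM in SCI blood. The SCI library was 0.75 (0.55 to 0.95) above naïve and 0.93 (0.74 to 1.12) above sham on the log2 scale, and the other 2 libraries lay close together. Beside this 1 call, 4.08% of 13006 genes were called higher and 4.44% lower in SCI than in naïve blood, and 4.1% of 13167 higher and 3.23% lower in SCI than in sham blood, with 0 of the 9 genes lower in either.

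The make-up of the T cells moved with the ITGA1 level. NT5E CD8 cells were 15.1% of T-like cells in naïve blood, 16.6% in sham blood and 30.9% in SCI blood, and NRP2 AK5 cells were 4.195%, 3.64% and 12.7%. Within NT5E CD8 cells ITGA1 was at 152 CPM in naïve, 130.1 CPM in sham and 126 CPM in SCI blood, so the SCI value was the lowest of the 3 and not called (−0.27 against naïve, −0.05 against sham). With the same subset weights in both libraries the log2 ratio over all T-like cells was −0.21 (−0.41 to −0.01) against naïve and −0.05 (−0.24 to 0.15) against sham, no longer called and of the opposite sign. The other ITGA1 subsets went separate ways: cytotoxic cells were at 25.4 CPM in naïve, 10.9 CPM in sham and 41.2 CPM in SCI blood, called lower in sham than naïve and higher in SCI than in both, and NRP2 AK5 cells were at 65.6, 76.7 and 40.4 CPM, called lower in SCI than in both. All these values come from 1 pool per condition, and the host difference named above bears on them too.

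**Figure D4:**
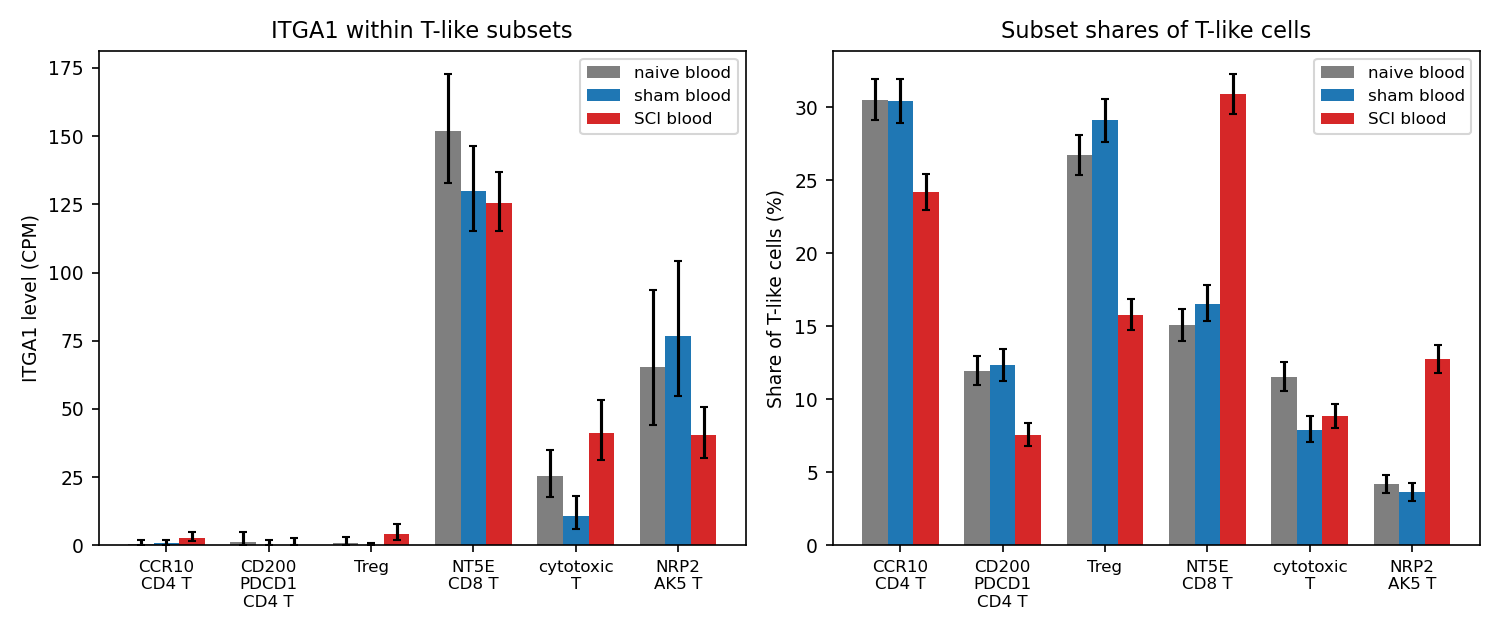
Left, ITGA1 level (CPM, bars from 0, 95% Poisson intervals) in each T-like subset of the 3 blood libraries; right, the share of T-like cells in each subset (%, exact binomial 95% intervals). ITGA1 sits mainly in NT5E CD8 cells at 126 to 152 CPM in all 3 libraries, and these cells make up 15.1%, 16.6% and 30.9% of T-like cells.

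RGS1 was highest in the sham library over all T-like cells, though not in each subset. Over T-like cells it was at 14.2 CPM in naïve, 22.9 CPM in sham and 15.4 CPM in SCI blood, with sham highest. Sham was 0.69 (0.42 to 0.97) above naïve on the log2 scale, the 1 gene of the 9 called higher, with 0 called lower, beside 1.58% of 12882 genes called higher and 2.59% lower. By subset, sham exceeded naïve in CD200 PDCD1 CD4 (18.1 against 8.63 CPM), NT5E CD8 (27.1 against 10.5 CPM) and cytotoxic cells (21.004 against 10.6 CPM). In Treg-like cells, 39.8 against 26.9 CPM stopped just short of 1.5-fold. SCI blood was below sham by −0.57 (−0.81 to −0.32), not called but close to the line, and it was called lower than sham in 2 T subsets, CCR10 CD4 (5.001 against 11.2 CPM) and CD200 PDCD1 CD4 (8.46 against 18.1 CPM). In 2 subsets, however, SCI blood was also called above naïve, at 18.8 against 10.5 CPM in NT5E CD8 and 21.7 against 10.6 CPM in cytotoxic cells, the latter level with sham. In CCR10 CD4 cells SCI blood was called below naïve, at 5.001 against 9.36 CPM (log2 ratio −0.89, −1.76 to −0.08). Even in sham blood RGS1 was far from the cord level, with 1.71% of T-like cells holding a UMI at 1000 UMIs a cell.

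The remaining 7 genes differed little between the blood libraries over all T-like cells. S1PR1 was 0.20 below naïve in sham and 0.26 below in SCI blood on the log2 scale, with intervals that excluded 0 but sizes under the rule. KLF2 had log2 ratios between −0.09 and 0.05 over the 3 comparisons, and those of ITGA4, ITGB7 and SELPLG lay between −0.16 and 0.05. CD69 was 0.33 above naïve in sham and 0.23 above in SCI blood, also under the rule. ITGAE was 0.35 (0.20 to 0.50) above naïve in SCI blood, not called over all T-like cells, but called in CCR10 CD4 cells, where it was at 44.1 CPM in naïve, 47.6 CPM in sham and 72.2 CPM in SCI blood. There the SCI library was 0.71 (0.43 to 0.99) above naïve and 0.60 (0.35 to 0.85) above sham, while the other libraries lay together.

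B-like cells had a different profile of the same genes. In the main cluster, TCL1A B-like, CD69 was at 185 CPM in naïve, 195 CPM in sham and 261 CPM in SCI blood, above every T subset (39.3 to 93.7 CPM). SELPLG was nearly absent there, at 9.78 to 11.4 CPM against 201 CPM or more in the T subsets, and RGS1 was at 0.408 to 1.96 CPM. ITGA1 was at 0 to 0.652 CPM, ITGA4 at 196 to 223 CPM, below every T subset, and ITGAE at 82.3 to 111 CPM. KLF2, at 2129 to 2250.4 CPM, lay within the range of the T subsets.

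**Figure D5:**
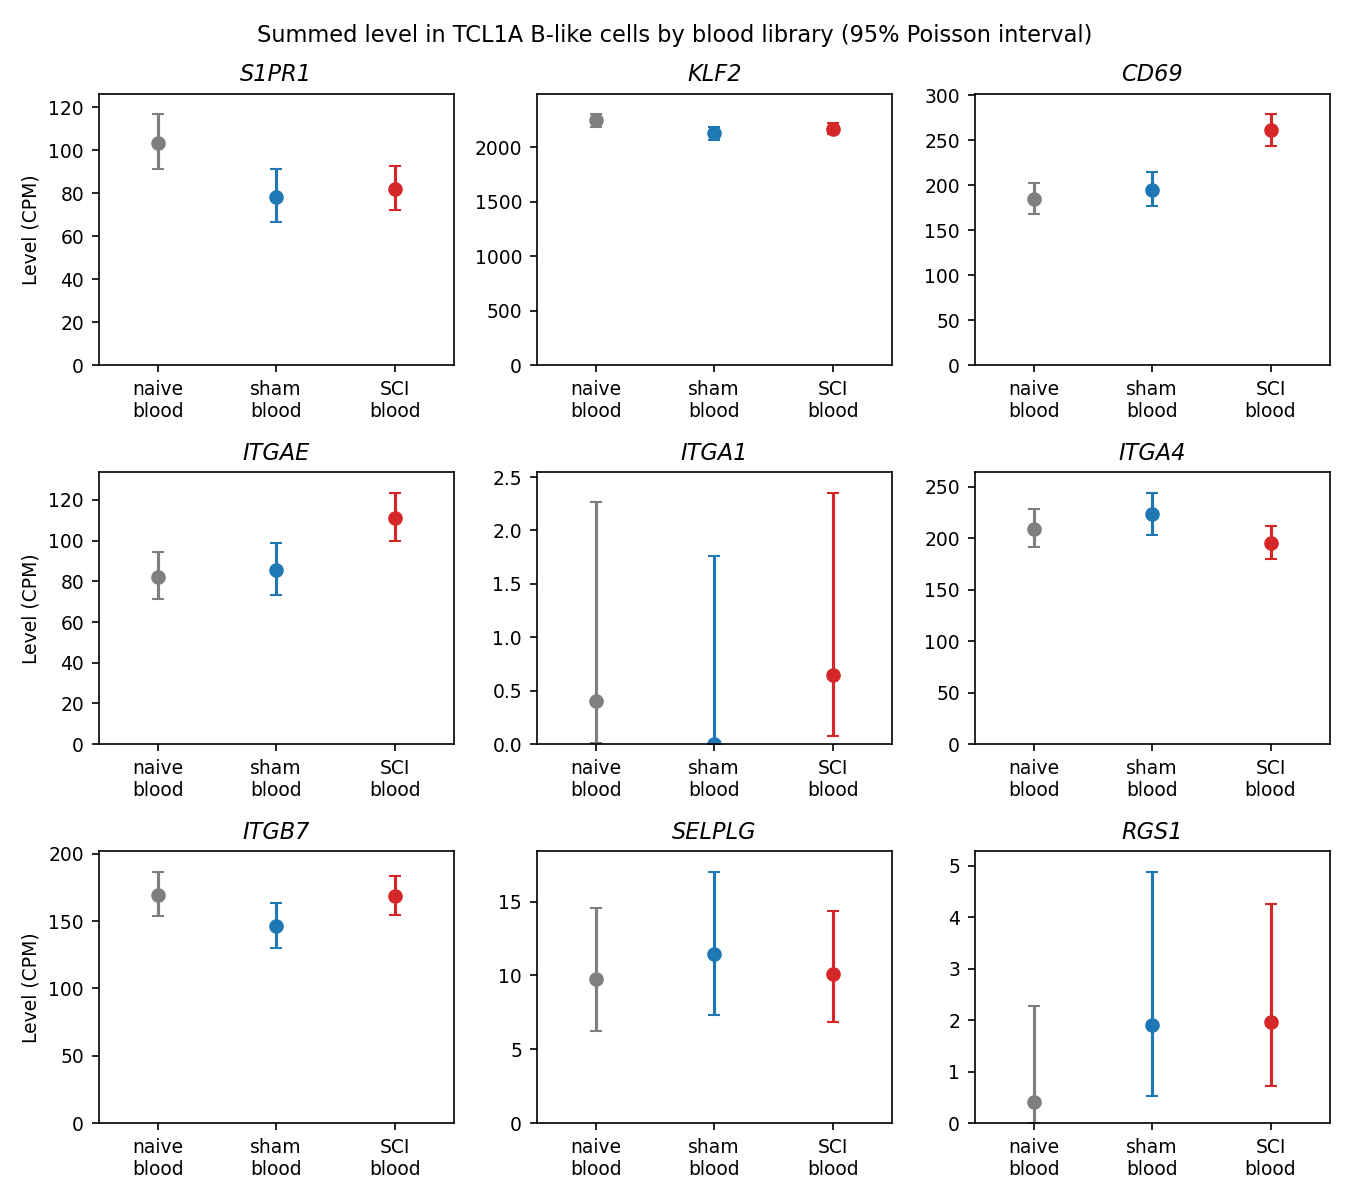
Level of each gene in TCL1A B-like cells (CPM, linear axis from 0) in the 3 blood libraries; points are the level and bars the 95% Poisson interval. CD69 (261 CPM) and ITGAE (111 CPM) in SCI blood lie above both naïve and sham blood, and no other gene has an SCI interval clear of both.

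Over all B-like cells, CD69 was at 149.6 CPM in naïve, 186 CPM in sham and 249.6 CPM in SCI blood. The SCI library was called above naïve (log2 ratio 0.74, 0.58 to 0.90), the 1 gene called higher with 0 lower, beside 2.6% of 10724 genes higher and 3.97% lower. At 1000 UMIs a cell, 8.48% of naïve, 10.9% of sham and 12.96% of SCI B-like cells held a CD69 UMI. Within TCL1A B-like cells the ratio was 0.50 (0.33 to 0.67), under the rule, and with the same subset weights it was 0.53, so the call was lost. The dissociation list moved with CD69 in this comparison, with 5 of 19 genes called higher and 0 lower in SCI B-like cells and a median of 0.25, and its part in the CD69 level was not tested. TCL1A B-like cells were 76.6% of naïve, 89.5% of sham and 93.2% of SCI B-like cells, and CD69 was lower in the IGHG4 B-like cells (58.7 to 68.3 CPM) that made up 13.4% of the naïve ones. In the few MPP6 B-like cells (55 naïve, 48 sham and 23 SCI), CD69 was at 29.7 CPM in naïve, 132 CPM in sham and 119 CPM in SCI blood.

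The other calls over all B-like cells were lost without a small cluster led by DSP, of which 99.0% of 99 cells were marked as doublets. SELPLG was at 22.2 CPM in naïve, 12.2 CPM in sham and 16.5 CPM in SCI blood, and sham was called below naïve (−0.85, −1.53 to −0.23), 1 of the 9 genes lower and 0 higher, beside 1.73% of 10475 genes higher and 4.07% lower. Of the 80 naïve UMIs, 51 lay in the DSP B-like cells, and without that cluster the ratio was 0.35 and not called. RGS1, with 14 UMIs in sham and 5 in naïve B-like cells, fell short of 20 counts there. Under some alternative settings, among them the removal of all marked doublets, it was called. Against SCI blood it had 14 UMIs in sham and 6 in SCI B-like cells and was called lower in SCI (1 of the 9 genes lower, 0 higher, beside 2.76% of 10339 genes higher and 2.16% lower). Of the 14, 4 came from the 1 sham cell in the DSP cluster, and without the cluster the log2 ratio was −1.13 (−2.92 to 0.43), of the same direction but not called.

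The SCI cord held 7 B-like cells, all TCL1A B-like, too few for a comparison. KLF2 was found in all 7 (71 UMIs), ITGAE in 6 (10 UMIs), CD69 and ITGA4 in 5 each (68 and 12 UMIs) and ITGB7 in 4 (5 UMIs). Of the 68 CD69 UMIs, 50 sat in a single cell, and without it the level was 391 CPM against 249.6 CPM in SCI blood. S1PR1 was found in 2 cells, SELPLG and RGS1 in 1 each, and ITGA1 in 0. Markers of other cells also ran high in these 7 cells: the 4 eosinophil markers summed to 1389 CPM against 0.599 to 1.69 CPM in blood B-like cells (EPX, PRG2 and IL5RA at 0), the 7 NK markers to 473 CPM against 8.85 to 18.9 CPM (NCAM1, KLRF1, KLRC1, SH2D1B and XCL1 at 0) and the 7 monocyte markers to 252 CPM against 9.59 to 24.5 CPM (CD14, FCN1, S100A12 and CSF1R at 0). Their part in the cord B-like values was not tested.

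Across 27 sums (9 cell classes in each of the 3 blood libraries, which share library and depth), the genes whose log2 levels ran closest to each member were, by Pearson's r among 8742 genes, TMEM43 (0.83) and WDR73 (0.80) for S1PR1, FTX and MCL1 (both 0.83) for KLF2, FES (0.96) and ASAH1 (0.95) for CD69, and OTULINL (0.87) and NINJ1 (0.86) for RGS1. For the integrins they were PPP2R3B (0.87) and BLM (0.86) for ITGAE, MATK (0.88) and RNF157 (0.87) for ITGA1, LY9 (0.96) and GYPC (0.94) for ITGA4, and RAB8B (0.90) and MAP1LC3B (0.88) for ITGB7. LCP2 and MFGE8 (both 0.98) ran closest to SELPLG. Among the members themselves the highest r was that of SELPLG with RGS1 (0.80) and the lowest that of CD69 with ITGA4 (−0.76).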

How the data were processed

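Human CD45+ cells sorted from blood or spinal cord were sequenced on the 10x Chromium platform, and the deposited UMI counts per gene and barcode were made by the authors with Cell Ranger 3.1.0 (per the file headers) against GRCh38 and mm10 together. Barcodes over 50% human were kept unless they lay over 3 median absolute deviations low on depth or genes, or high on mitochondrial or ribosomal share, or were marked as doublets (Scrublet in scanpy 1.11.5) with over 3000 genes. Cells were clustered on 2000 variable genes scaled within each library (30 components, 15 neighbours, leidenalg 0.10.2, resolution 0.8), without the 9 genes and the first 3 gene lists. Clusters were named from marker lists, with at least 3 markers each seen in 10% of cells, or else by leading genes. Library totals were 34161760, 36007208 and 36487994 UMIs in naïve, sham and SCI blood and 4206461 in SCI cord.

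UMIs were summed per class and library. Intervals are Poisson for levels, exact Clopper-Pearson for shares and conditional binomial for ratios, with 0.5 counts added to each count for the log2 ratio. Cells were thinned to 1000 or 2000 UMIs, which left out no T-like or B-like cell at 1000. All 9 genes were named, as were the 3 highest and 3 lowest genes of each list with at least 20 counts and the 2 genes of highest r (mean of at least 10 CPM, classes of at least 50 cells per library). The ratio script was tested on simulated data. The members, lists and rules were chosen with earlier results of these data known. Python 3.11.15, numpy 2.4.6, scipy 1.17.1, R 4.3.3 and edgeR 4.0.16 (TMM factors only) were used. Alternatives covered the human share, cell filter, doublets, resolution, centring, marker gating, scaling, thinning, subset weights and count minimum. A pair was added after seeing the data: leaving out cells with a shared barcode, and leaving out the DSP B-like cluster. No human reference was used here, so no coordinates or sequences are given. The levels of single B cell markers are not reported here.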

Additional observations from a re-analysis of the deposited data

How the results depend on the processing

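Under 15 planned and 2 added settings, 983 of 1161 values of the 9 genes stayed within the interval of the main value, 171 left it and 7 were values called 1.5-fold apart in the main setting that took the opposite sign. The count of genes called in cord T-like cells against SCI blood was 4 and became 2 as UMIs per cell. It was 3 without the filter on deviations, with ribosomal and mitochondrial genes in the total and at both thinned depths, 5 with TMM or median-of-ratios factors (SELPLG added) and with marker gating (ITGB7 added), and 6 with the same subset weights (ITGAE and SELPLG added). CD69 and RGS1 were called in every one of these. For T-like cells of sham against naïve blood the count of 1 became 3 as UMIs per cell. For SCI against naïve blood the count of 1 became 2 as UMIs per cell and 0 with the same subset weights, and for SCI against sham blood it became 2 as UMIs per cell, with ribosomal and mitochondrial genes in the total and at both thinned depths, and 0 with the same subset weights. For B-like cells of sham against naïve blood it went from 1 to 2 over 90% human UMIs, at resolution 0.4, without centring, as UMIs per cell and with a minimum of 1 count, to 3 with marker gating, and to 0 at both thinned depths, with the same subset weights and without the DSP B-like cluster. It stayed at 1 without the filter on deviations and with all marked doublets removed, but there the gene called was RGS1 and not SELPLG. As UMIs per cell the 2 genes were CD69 and ITGAE, again without SELPLG. For SCI against naïve B-like cells it went from 1 to 3 over 90% human UMIs and with marker gating, to 2 at resolution 0.4, without centring, as UMIs per cell and at both thinned depths, and to 0 with the same subset weights. For SCI against sham B-like cells it went from 1 to 2 with all marked doublets removed and to 0 with marker gating, at both thinned depths and without the DSP cluster. The called values that took the opposite sign were ITGA4 in cord T-like cells as UMIs per cell (0.27), ITGA1 in SCI blood T-like cells with the same subset weights (−0.21 against naïve and −0.047 against sham), and SELPLG in sham against naïve B-like cells with marked doublets removed (0.14), at 1000 UMIs (0.33), with the same subset weights (0.74) and without the DSP cluster (0.35). Values that were not called also crossed 0, among them the cord T-like ratio of S1PR1 (−1.03 to 0.54 over the settings), ITGAE (−2.66 to 0.40), ITGB7 (−0.59 to 0.46) and SELPLG (−0.70 to 0.33). Where no cause is given in the text, it was not tested.

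No paired analysis was possible because each condition holds 1 library. This also leaves no replicate to leave out. The 66 cord T-like cells and 7 cord B-like cells limit every cord value, above all those of S1PR1, ITGAE and ITGA1, with at most 33 UMIs each.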

Other observations

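The cord pattern of CD69, RGS1 and KLF2 was also seen outside the T cells. In the 15 basophil or mast-like cells of the SCI cord, CD69 was at 1470.4 CPM against 474 CPM in the 133 cells of SCI blood (log2 ratio 1.63, 1.35 to 1.91). RGS1 was at 176 CPM against 8.11 CPM (4.30, from 23 UMIs in the cord and 4 in blood), and KLF2 at 827 CPM against 1964 CPM (−1.24, −1.55 to −0.96). These cells also had less ITGB7 (99.6 against 257 CPM) and SELPLG (146 against 355 CPM), both past the 1.5-fold rule, while ITGA4 was at 99.6 against 107 CPM and not called. In blood, basophil or mast-like cells held the highest CD69 of the 13 cell classes, at 314 CPM in naïve, 527 CPM in sham and 474 CPM in SCI blood, with sham and SCI both called above naïve (0.74 and 0.59), and S1PR1 there was at 157 CPM in naïve against 80.0 and 83.1 CPM, both called lower. Monocyte-like cells of sham blood also held more CD69 than those of naïve blood (273 against 165 CPM, 0.72). ITGAE in cycling cells was at 122 to 137 CPM over the 3 blood libraries, above every T subset (39.3 to 74.1 CPM).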
